A study of Mus musculus with 44 samples.

Results

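Osteopontin, encoded by Spp1, and its receptor CD44, encoded by Cd44, were followed through 2 mouse models of steatohepatitis. The members were taken by gene symbol and are 2 of the 20105 transcript identifiers in the count table, NM_001204202 for Spp1 and NM_001177786 for Cd44. Both passed the filter on low counts in every comparison below. Nuclear RNA came from 22 male HEP-INTACT mice, whose hepatocyte nuclei carry a tag that allows them to be pulled out of a suspension of liver nuclei. From each mouse, tagged hepatocyte nuclei and the nuclei of the whole liver were sequenced separately, so that 44 libraries fell into 12 groups. In the CDAHFD study, 4 mild and 3 advanced mice had eaten CDAHFD, a high-fat diet that lacks choline and has defined amino acids, for 7 weeks, and in the FPC study 4 mild and 3 advanced mice had eaten the FPC diet for 20 weeks. The 4 controls of each study had a low fat diet for the same time. All mice, controls included, carried the tag. The labels name neither the promoter that drives it nor the age of the mice. Stage was assigned from liver histology after feeding and not at random, and only advanced livers had marked fibrosis. Diet and feeding time cannot be told apart.

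Osteopontin is a secreted, acidic phosphoprotein that binds integrins through an RGD motif and other sites, and that thrombin and matrix metalloproteinases cleave. In the liver it is known as a product of bile duct epithelium, activated stellate cells and macrophages. CD44 is the main cell surface receptor for hyaluronan, is abundant on leukocytes, and is reported to bind osteopontin as well; enzymes at the cell surface shed its outer part.

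Both genes rose in both fractions and under both diets. In hepatocyte nuclei of advanced against control mice, Spp1 was 15.2-fold higher under CDAHFD and 29.8-fold higher under FPC, and Cd44 was 11.8-fold and 17.1-fold higher. Spp1 reached about the level of whole liver nuclei in the hepatocyte nuclei of advanced CDAHFD mice, at 75.4 to 119.1% of it. Cd44 was at 19.8 to 23.9% there, up from 6.70 to 9.43% in controls. In advanced FPC mice the ranges overlapped, at 47.6 to 94.6% for Spp1 and 36.3 to 55.5% for Cd44.

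The 300-base windows around the annotated starts of the 2 genes are given because both genes moved with disease, and the factors proposed to act on Spp1 are described further on. They run 5′ to 3′ on the gene's strand, from 250 bases before the start to 50 after it, as RefSeq gives them for GRCm38.p6. The Cd44 window is set on an annotated start a few bases inside the gene span given below. The Spp1 window is chr5:104434861-104435160 (plus strand) and the Cd44 window chr2:102901616-102901915 (minus strand). Capitals mark matches to the searched motifs.
Spp1: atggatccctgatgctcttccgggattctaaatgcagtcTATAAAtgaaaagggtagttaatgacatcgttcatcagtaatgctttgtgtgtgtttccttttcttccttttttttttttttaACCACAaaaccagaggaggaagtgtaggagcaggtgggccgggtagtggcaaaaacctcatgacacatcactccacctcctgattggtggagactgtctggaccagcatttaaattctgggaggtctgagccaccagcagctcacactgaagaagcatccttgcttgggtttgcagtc
Cd44: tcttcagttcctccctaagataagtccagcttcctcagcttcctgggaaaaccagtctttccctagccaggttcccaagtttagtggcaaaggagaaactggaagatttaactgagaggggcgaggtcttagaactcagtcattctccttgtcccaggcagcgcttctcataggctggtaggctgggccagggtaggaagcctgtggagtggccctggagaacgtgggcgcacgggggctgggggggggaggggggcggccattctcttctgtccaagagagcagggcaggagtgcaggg

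Motifs were searched on both strands, and the share of all 32817 windows of the table that hold each is given beside it. The letters were TGANTCA for AP-1 (7.81%), TGTGGT for RUNX (16.8%), GACCACCCA for GLI (0.253%), CACGTG for the E-box (7.15%), TATAAA for the TATA box (13.6%) and GGAATG for TEAD (14.7%). No match overlaps another. The Spp1 window holds a RUNX match, read as ACCACA on the strand shown, that begins at position -128 from the start, and a TATA match that begins at -211. The Cd44 window and a second annotated Spp1 start at chr5:104435942-104436241 hold none of these letters. GC content is 45.3% for Spp1 and 58% for Cd44, beside a median of 52.7% over all windows. Spp1 spans 5943 bases (chr5:104435111-104441053, GRCm38, plus strand) and Cd44 90529 bases (chr2:102811141-102901669, minus strand), introns included.

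Library totals ran from 12.1 to 33.1 M counts (median 22.8 M), with the lowest group mean, 15.6 M, in hepatocyte nuclei of advanced CDAHFD mice (n = 3). The mouse number pairs a hepatocyte library with a whole liver library. Over 12388 genes, deviations from the group means correlated above 0.1 within the pair, and best with the mouse's own partner, in 20 of 22 mice. The exceptions are CDAHFD control mice CDAHFD_Control_9862 and CDAHFD_Control_9867. Their own pairs gave r = -0.18 and -0.23, and the hepatocyte library of each deviated with the whole liver library of the other (r = 0.75 and 0.65). Both are controls of one study, so group means within a fraction do not depend on which is which; calls that rest on their pairing are given also without them.

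Spp1 was scarce in control hepatocyte nuclei, with 20 to 50 counts per library, and increased with stage. Values are CPM, the counts of a gene scaled to the same total in each library. In CDAHFD hepatocyte nuclei it had 1.28, 1.35, 2.82 and 1.22 CPM in the 4 controls, 10, 5.59, 18.0 and 20.6 CPM in the 4 mild mice, and 22.7, 40.5 and 40.8 CPM in the 3 advanced mice. In FPC hepatocyte nuclei it had 1.54, 2.17, 1.89 and 0.858 CPM in controls, 12.3, 11.6, 14.8 and 13.1 CPM in mild mice, and 52.0, 77.6 and 61.4 CPM in advanced mice. No stage overlapped another in either diet, although the highest mild CDAHFD mouse lay just under the lowest advanced one.

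In whole liver nuclei, CDAHFD mice had 3.29, 4.87, 5.23 and 3.89 CPM of Spp1 as controls, 13.1, 12.9, 26.3 and 21.4 CPM at the mild stage, and 30.1, 38.1 and 34.3 CPM at the advanced stage. FPC mice had 3.22, 5.44, 5.04 and 3.63 CPM as controls, 23.2, 15.3, 29.3 and 25.2 CPM at the mild stage, and 109.4, 82.0 and 70.6 CPM at the advanced stage. Again no 2 stages of a diet overlapped. In whole liver samples, fewer cells of a type and less RNA per cell cannot be told apart.

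**Figure D1:**
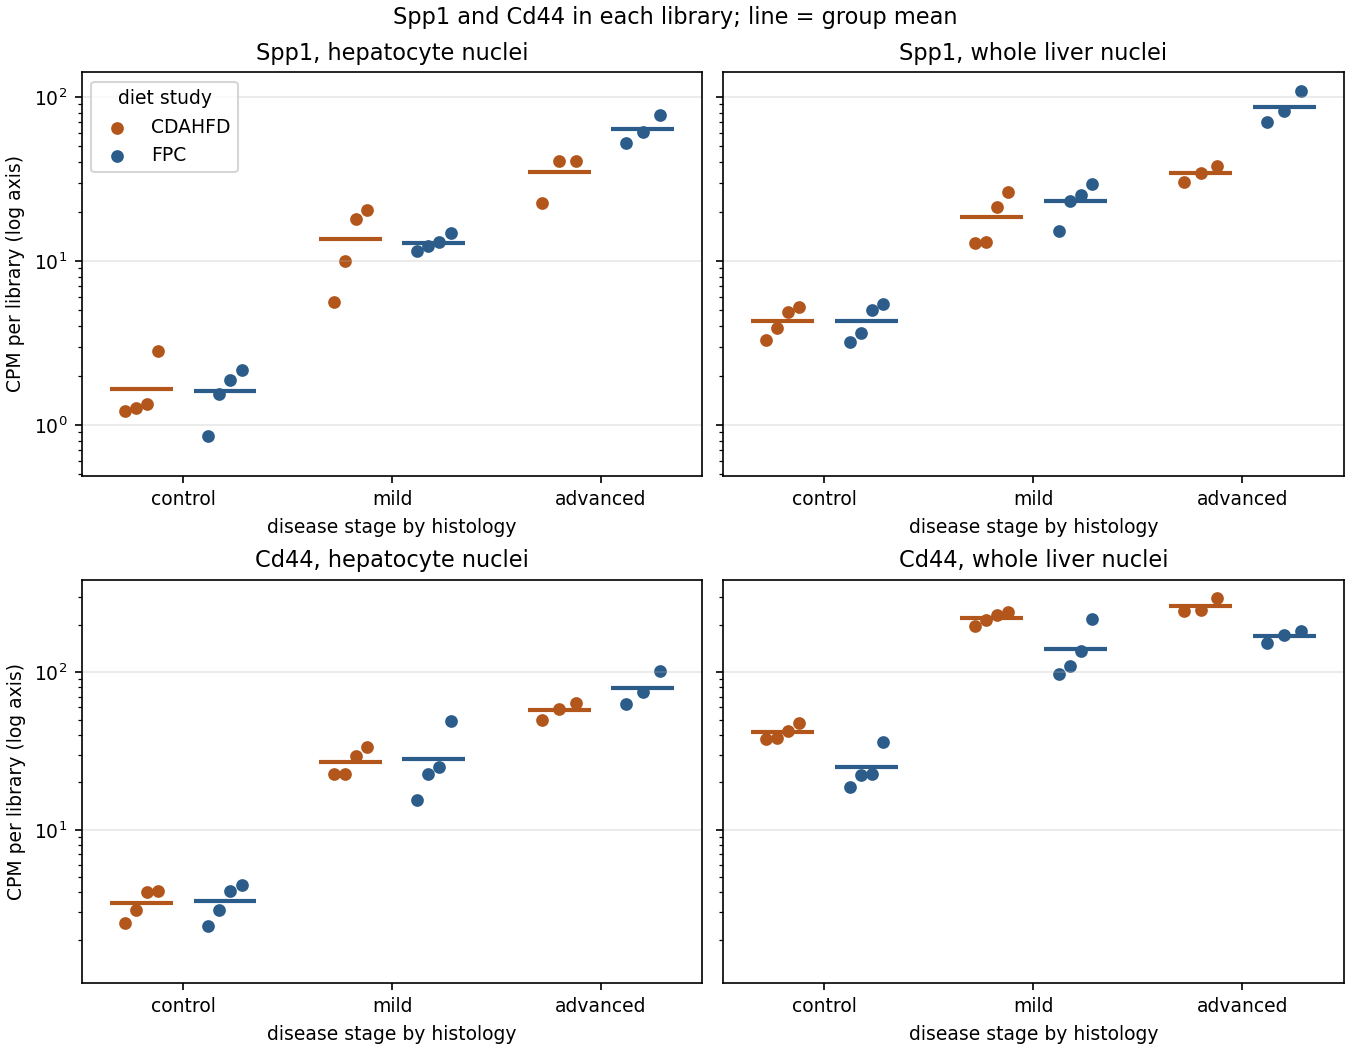
CPM of Spp1 (upper row) and Cd44 (lower row) on a log axis in hepatocyte nuclei (left) and whole liver nuclei (right), by stage; each point is 1 library, lines are group means, and colours are the diet studies. Spp1 climbs at both steps of stage in all panels, while Cd44 in whole liver nuclei is already near its highest level in mild mice.

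All 8 comparisons of Spp1 with controls passed edgeR's quasi-likelihood test (Benjamini-Hochberg adjusted p under 0.05 over all genes tested). In hepatocyte nuclei the log2 fold change of advanced over control mice was 3.92 ± 0.45 under CDAHFD (SE; adjusted p = 2.51e-05) and 4.90 ± 0.23 under FPC (7.72e-09). Of all genes tested, 59.5% and 46.9% passed in these comparisons, so that a call by itself sets no gene apart. Mild over control mice gave 2.71 ± 0.43 under CDAHFD (0.000294; 56.3% of genes called) and 2.77 ± 0.21 under FPC (2.32e-06; 33.1%). The step from mild to advanced disease passed under FPC (2.13 ± 0.20, 1.99e-05; 20.2%) and did not under CDAHFD (1.21 ± 0.40, 0.122; 2.82%), where DESeq2 called it (0.0429). In the authors' deposited table the hepatocyte changes of Spp1 are 3.95 and 2.71 for advanced and mild over control under CDAHFD and 4.89 and 2.72 under FPC, with 1.23 and 2.17 for advanced over mild.

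Whole liver nuclei gave smaller log2 fold changes of Spp1. Advanced over control mice differed by 2.52 ± 0.25 under CDAHFD (edgeR adjusted p = 2.97e-06; 55.7% of genes called) and by 3.89 ± 0.26 under FPC (1.11e-07; 59.3%). Mild over control mice differed by 1.71 ± 0.24 (6.35e-05; 52.2%) and 2.13 ± 0.24 (2.16e-05; 43.2%). Advanced over mild mice differed by 0.81 ± 0.24 under CDAHFD, which did not pass (0.111; 1.88%; DESeq2 0.0426), and by 1.76 ± 0.23 under FPC, which did (0.000241; 22.3%).

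Cd44 also rose at the mild stage, and most of its whole liver change was there by then. CDAHFD hepatocyte nuclei had 2.55, 3.12, 4.06 and 4.01 CPM in controls, 22.7, 22.6, 33.3 and 29.3 CPM in mild mice, and 49.5, 58.2 and 63.8 CPM in advanced mice. FPC hepatocyte nuclei had 4.10, 4.44, 2.45 and 3.09 CPM in controls, 48.8, 15.3, 25 and 22.7 CPM in mild mice, and 62.5, 101.3 and 74.9 CPM in advanced mice. The stages did not overlap in either diet; the high mild FPC value of 48.8 CPM belongs to mouse FPC_Mild_6825, whose hepatocyte library also held the highest share of endothelial RNA (given below).

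In CDAHFD whole liver nuclei Cd44 had 38.1, 37.7, 47.6 and 42.5 CPM in controls, 214.4, 196.9, 242.3 and 231.7 CPM in mild mice, and 249.3, 243.9 and 295.9 CPM in advanced mice. In FPC whole liver nuclei it had 36.2, 22.7, 18.6 and 22.3 CPM in controls, 217.3, 109.7, 135.4 and 97.3 CPM in mild mice, and 172.0, 182.4 and 153.3 CPM in advanced mice. Mild and advanced FPC mice overlapped, and in CDAHFD the highest mild mouse was just below the lowest advanced one.

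In hepatocyte nuclei the log2 fold change of Cd44 in advanced over control mice was 3.57 ± 0.20 under CDAHFD (edgeR adjusted p = 1.69e-07) and 4.09 ± 0.37 under FPC (1.84e-06). Mild over control mice gave 2.63 ± 0.19 (1.28e-06) and 2.77 ± 0.34 (7.45e-05). Advanced over mild mice gave 0.94 ± 0.18 under CDAHFD (0.0219, lost without any 1 of 4 mice) and 1.32 ± 0.33 under FPC (0.0135, lost without mouse FPC_Advanced_6880, at 1.16). In whole liver nuclei advanced over control mice gave 2.20 ± 0.12 (3.01e-08) and 2.32 ± 0.29 (2.25e-05), and mild over control mice 2.04 ± 0.12 (4.18e-08) and 2.22 ± 0.27 (5.42e-05). Advanced and mild whole livers differed by only 0.17 ± 0.12 under CDAHFD (0.64) and 0.11 ± 0.28 under FPC (0.833), neither past the threshold.

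**Figure D2:**
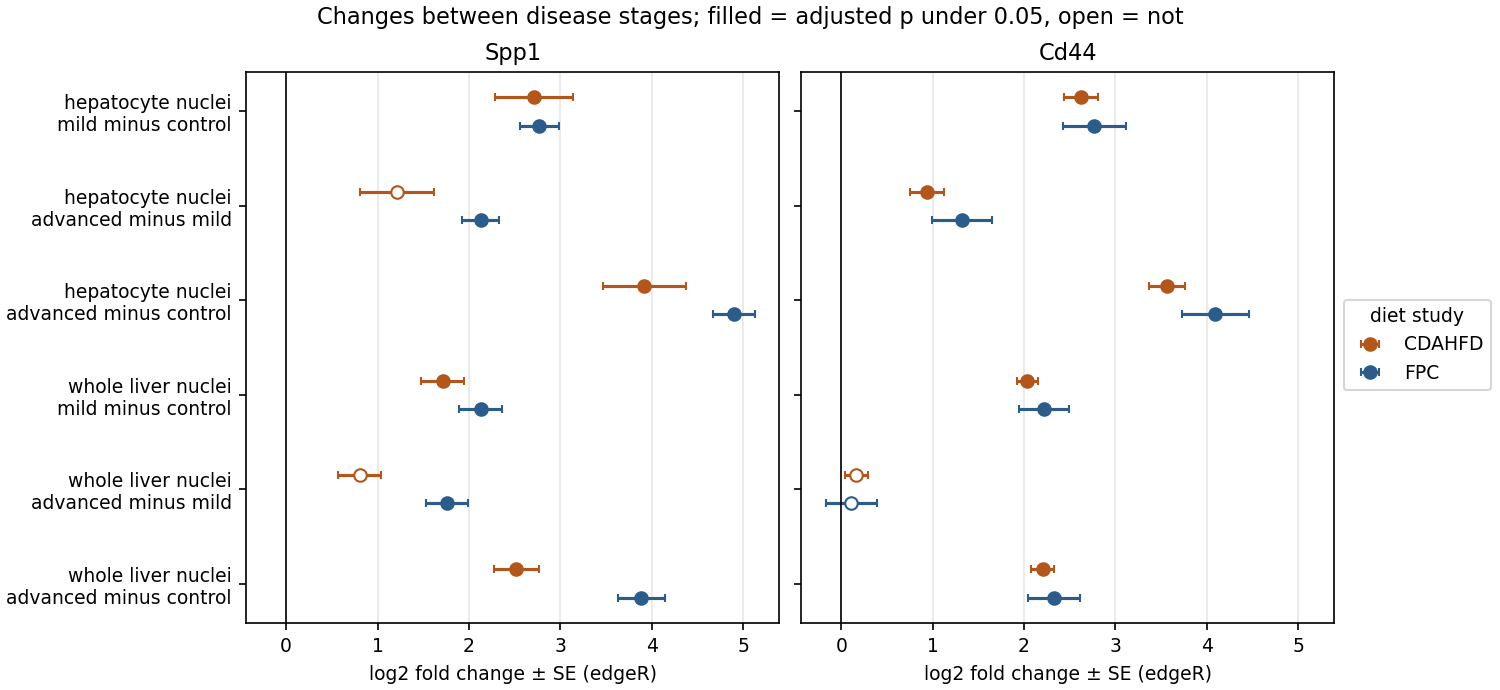
Log2 fold changes (edgeR, bars are SE) between stages for Spp1 (left) and Cd44 (right) in both fractions and diets; filled points passed the adjusted threshold. The advanced minus mild step of Cd44 lies near 0 in whole liver nuclei (0.17 and 0.11) and at 0.94 and 1.32 in hepatocyte nuclei.

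Ordered by mean level, Spp1 was lowest in hepatocyte nuclei of FPC and CDAHFD controls (1.61 ± 0.567 and 1.67 ± 0.771 CPM, SD, n = 4 each), followed by whole liver nuclei of CDAHFD and FPC controls (4.32 ± 0.890 and 4.33 ± 1.07). The mild groups came next, at 12.9 to 23.2 CPM, and each overlapped with the mild group next to it. Advanced CDAHFD whole liver and hepatocyte nuclei, at 34.2 ± 3.96 and 34.7 ± 10.4 CPM (n = 3 each), could not be separated, and advanced FPC hepatocyte nuclei (63.7 ± 12.9) and whole liver nuclei (87.3 ± 20.0) were highest. Cd44 was lowest in both groups of control hepatocyte nuclei (3.43 ± 0.730 CPM under CDAHFD, 3.52 ± 0.916 under FPC) and highest in whole liver nuclei of advanced CDAHFD mice (263.0 ± 28.6). Thus Cd44 was higher in advanced CDAHFD than in advanced FPC whole livers, and Spp1 was the other way round, with no overlap for either gene. For Cd44 the whole liver controls of the studies already differed without overlap, at 37.7 to 47.6 CPM under CDAHFD and 18.6 to 36.2 CPM under FPC. Whole liver controls overlapped for Spp1. The share of all genes without such overlap was not computed, and the changes against controls are compared between diets below.

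Because the genes differ in length, they were set beside each other as CPM per kilobase of gene. Per kilobase, Spp1 exceeded Cd44 by a mean of 7.30 to 12.3 times in the 6 hepatocyte groups, and by less in whole liver nuclei, where the highest mean was 7.85 times, in advanced FPC mice. This ratio was 9.12 ± 1.89 in advanced CDAHFD hepatocyte nuclei, against 1.99 ± 0.334 in whole liver nuclei of the same mice. These are ratios of levels in nuclear RNA, and they assume that Cd44, whose counted length is not known here, was counted over its whole span.

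The comparison of fractions asks how the level of each RNA in tagged hepatocyte nuclei stood to that in whole liver nuclei. Each CPM is scaled to its own library. The share is therefore a relative level, and not the portion of the liver's RNA that lies in hepatocyte nuclei. As a share of the whole liver CPM of the same mouse, Spp1 in hepatocyte nuclei was at 38.8, 27.6, 53.9 and 31.4% in CDAHFD controls, 76.5, 43.2, 68.6 and 95.8% in mild mice, and 75.4, 106.5 and 119.1% in advanced mice. In FPC mice it was at 47.7, 39.9, 37.6 and 23.7% in controls, 53.1, 75.7, 50.4 and 51.8% in mild mice, and 47.6, 94.6 and 86.9% in advanced mice. The share was higher in all 3 advanced CDAHFD mice than in any control, and under FPC 1 advanced mouse, FPC_Advanced_6826, fell within the control range.

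The share of Cd44 was smaller than that of Spp1 in each mouse, but the ranges of the genes overlapped in advanced FPC mice. It was 6.70, 8.28, 8.53 and 9.43% in CDAHFD controls, 10.6, 11.5, 13.7 and 12.6% in mild mice, and 19.8, 23.9 and 21.6% in advanced mice. In FPC mice it was 11.3, 19.6, 13.2 and 13.8% in controls, 22.5, 14.0, 18.4 and 23.3% in mild mice, and 36.3, 55.5 and 48.9% in advanced mice. All advanced mice lay above all mild and control mice of their diet.

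Two-sided exact permutation tests of the log2 share were run for 12 comparisons. Tests at 0.0286 had a Benjamini-Hochberg adjusted p of 0.049, a value that depends on how many of the 12 reached it. The smallest exact p that can occur is 0.0286. Advanced over control mice reached this smallest p for Cd44 in both diets (differences 1.37 under CDAHFD and 1.67 under FPC) and for Spp1 under CDAHFD (1.37). Spp1 under FPC did not (0.96, exact p = 0.0571, adjusted 0.0762). Advanced over mild mice reached it for Cd44 (0.85 under CDAHFD, 1.26 under FPC) and not for Spp1 (0.52 with exact p = 0.171, and 0.36 with exact p = 0.257). Mild over control mice reached it for Cd44 under CDAHFD (0.53) and Spp1 under FPC (0.60). It was missed by Cd44 under FPC (0.41, exact p = 0.171) and Spp1 under CDAHFD (0.84, exact p = 0.0571). Without mice CDAHFD_Control_9862 and CDAHFD_Control_9867 the mean control share under CDAHFD was 42.6% for Spp1 and 8.98% for Cd44 (n = 2).

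**Figure D3:**
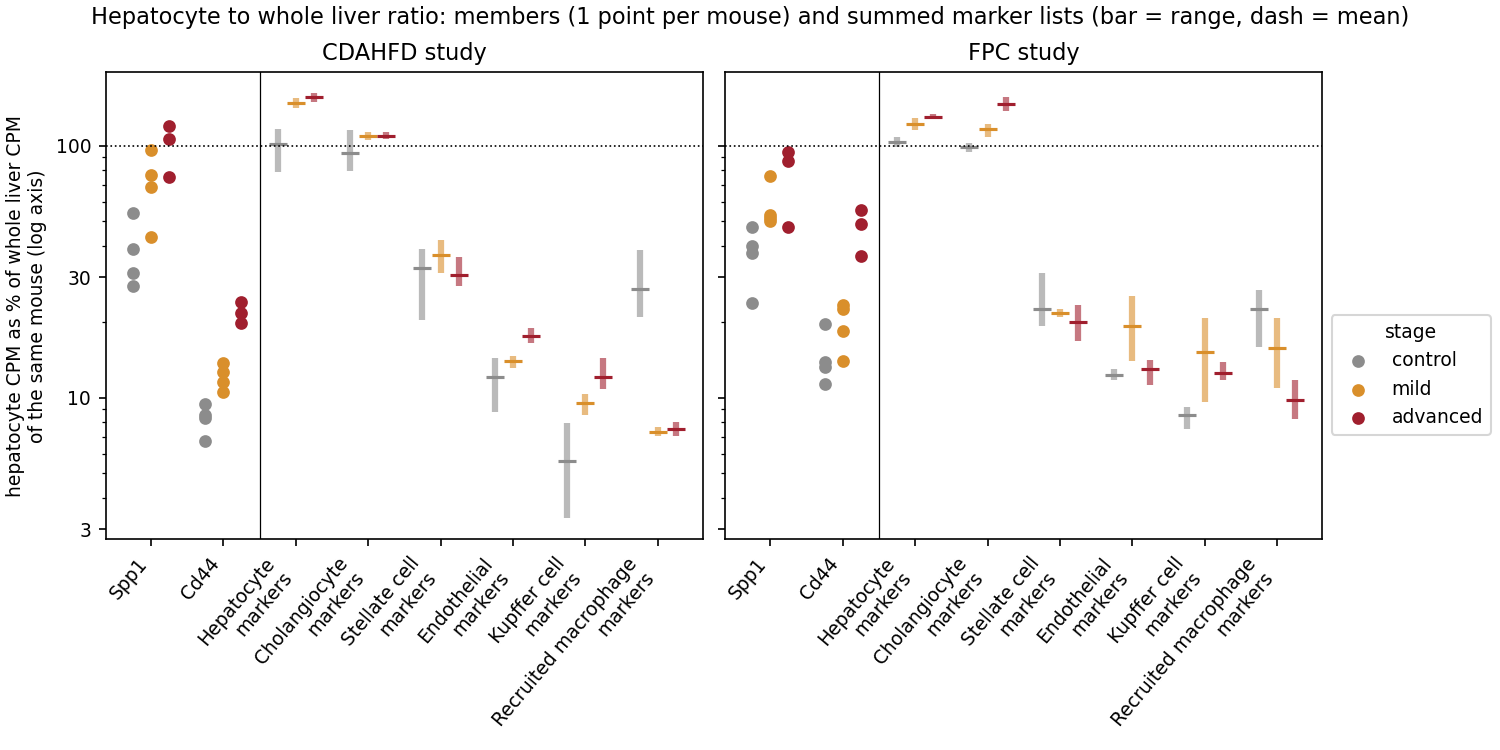
Hepatocyte CPM as a percentage of the whole liver CPM of the same mouse (log axis, CDAHFD left, FPC right). Points are single mice for Spp1 and Cd44, and bars with dashes are the range and mean over mice of summed marker lists; the dotted line is 100%. Spp1 lies above the endothelial, Kupffer cell and macrophage bars at the mild and advanced stages, and Cd44 lies near the endothelial bars in control and mild mice.

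Tests of the fractions on all libraries of a diet gave the same order. In hepatocyte against whole liver nuclei, Spp1 was lower in CDAHFD controls (log2 difference -1.19 ± 0.38, edgeR adjusted p = 0.0212; 31% of genes called) and FPC controls (-1.28 ± 0.25, 0.000557; 17.5%). Without mice CDAHFD_Control_9862 and CDAHFD_Control_9867 the CDAHFD value was -1.03 and no longer passed (0.285). With the mouse as a block, which uses the pairing, the value without them was -1.08 ± 0.31 and passed (edgeR adjusted p = 0.0231). In mild mice the difference was -0.32 ± 0.33 under CDAHFD (0.441; 50.7%) and -0.70 ± 0.22 under FPC (0.0206; 26.2%). In advanced mice it was 0.12 ± 0.37 (0.818; 43.2%) and -0.41 ± 0.24 (0.262; 22.5%), neither past the threshold. The median gene stood at 0.20 in CDAHFD controls, 0.11 in FPC controls and at 0.04 to 0.10 in the other groups.

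Cd44 was lower in hepatocyte nuclei in all 6 groups. The log2 difference was -3.38 ± 0.16 in CDAHFD controls (edgeR adjusted p = 1.17e-12), -2.91 ± 0.15 in mild mice (2.3e-12) and -2.11 ± 0.17 in advanced mice (2.56e-09). In FPC mice it was -2.67 ± 0.35 (3e-06), -2.18 ± 0.32 (1.74e-05) and -1.03 ± 0.36 (0.042, and 0.0593 with no filter on low counts).

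Whether the disease change differed between fractions was tested as an interaction. The advanced change of Cd44 was larger in hepatocyte than in whole liver nuclei under CDAHFD, by 1.27 ± 0.22 on the log2 scale (edgeR adjusted p = 0.000973; 10.2% of genes called), and by 1.13 ± 0.24 without the 2 doubtful control mice (0.0115). Under FPC the difference was 1.63 ± 0.49 (0.0731; 3.82%). With the mouse as a replicate block, which uses the pairing, that FPC value was 1.62 and passed (0.000174; 9.45%). For Spp1 the advanced difference was 1.32 ± 0.53 under CDAHFD (0.126), and 1.30 with the block, which passed (0.0103; 18%). In that block 2 of the 4 control pairs are the doubtful ones of CDAHFD_Control_9862 and CDAHFD_Control_9867. Without these mice the blocked value was 1.10 ± 0.36, at the threshold (edgeR adjusted p = 0.0499; 19.8%), and the unblocked one 1.09 ± 0.69 (0.407). Under FPC it was 0.87 ± 0.35 (0.287). At the mild stage the differences under CDAHFD were 0.87 ± 0.50 for Spp1 (0.299; 11%) and 0.47 ± 0.21 for Cd44 (0.167; 0.46 with the block, which passed at 0.0239; 18.9%). The blocked Cd44 value without the 2 control mice was 0.37 ± 0.15 and did not pass (0.105; 18.4%). Under FPC they were 0.58 ± 0.33 for Spp1 (0.922) and 0.49 ± 0.45 for Cd44 (1; 0.586%).

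Between diets, the advanced change of Spp1 in whole liver nuclei was smaller under CDAHFD than under FPC, by -1.38 ± 0.37 on the log2 scale (edgeR adjusted p = 0.0346; 4.67% of genes called). Leaving out 1 mouse ended this call for each of 8 mice (-1.44 to -1.14). In hepatocyte nuclei the same difference was -0.92 ± 0.51 (0.238; 11.9%) and did not pass. Cd44 differed between diets by -0.47 in hepatocyte nuclei (0.483) and -0.13 in whole liver nuclei (0.882) at the advanced stage. At the mild stage Spp1 differed by 0.01 and -0.42 and Cd44 by -0.07 and -0.19 in hepatocyte and whole liver nuclei, with adjusted p of 0.53 or more (12.2% and 5.01% of genes called).

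RNA of other cell types was present in the hepatocyte libraries, and its levels moved with disease. The 16 endothelial markers summed to 16.4 to 18.9% of their whole liver level in advanced CDAHFD mice, 13.1 to 14.7% in mild mice and 8.74 to 14.4% in controls. In FPC mice they summed to 11.3 to 14.1%, 13.9 to 25.2% and 11.8 to 13.0%. Coagulation factor F8 and, in advanced CDAHFD mice, the scavenger receptor Stab1 were higher than the other markers, at 35.5 and 43.0% there. The median marker of each mouse stood at 7.27 to 9.10% in advanced and 6.65 to 10.3% in control CDAHFD mice, and at 6.54 to 11.2% and 7.84 to 10.2% in FPC mice. The share of Cd44 in controls, 6.70 to 19.6%, overlapped with the range of the control medians, and that of Spp1, 23.7 to 53.9%, lay above it in each control.

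Markers of recruited macrophages rose as a group: all 9 of 9 passed in advanced hepatocyte nuclei of both diets. They summed to 64.7 to 80.9 CPM in advanced and 2.35 to 4.01 CPM in control CDAHFD hepatocyte nuclei, and to 19.2 to 25.9 and 1.54 to 2.36 CPM under FPC. Trem2 had no counts in FPC control hepatocyte nuclei. In the same advanced mice they were at 7.02 to 8.01% of their whole liver level under CDAHFD and at 8.22 to 11.8% under FPC. The share of Spp1 was 10.7 to 14.9 times this in advanced CDAHFD mice and 5.11 to 11.5 times in advanced FPC mice, and that of Cd44 2.69 to 3.15 and 3.90 to 6.75 times. In controls the macrophage list itself stood higher, at 20.9 to 38.6% under CDAHFD and 15.9 to 26.8% under FPC. Cd68 made up most of this low sum, with 1.96 of 2.85 CPM and 1.10 of 1.95 CPM on average. By group means Cd68 stood at 94.2 and 63.3% of whole liver, and the other macrophage markers at up to 13.3 and 23.9%. The Cd44 share was below the summed share, carried mainly by Cd68, in every control (0.24 to 0.41 and 0.52 to 0.79 times). The Spp1 share was above it in 3 of 4 controls of each diet. In advanced mice Kupffer cell markers summed to 10.8 to 14.3% and 11.7 to 13.9% of whole liver. Of these, 6 and 4 of 10 were higher and 1 lower in each diet, beside 59.5% and 46.9% of all genes called in either direction. Of stellate cell markers 5 of 12 were higher and 1 lower under CDAHFD, and 8 of 14 higher under FPC. Of lymphocyte markers 4 of 6 and 4 of 7 were higher, and of the neutrophil and mesothelial lists only 1 gene each could be tested. Not every list had a low summed share of its whole liver level in advanced mice. Stellate cell markers summed to 27.6 to 36.1% under CDAHFD and 16.8 to 23.3% under FPC, and lymphocyte markers to 55.8 to 80.6% and 42.0 to 100.8%. Reln made up most of the stellate sum, with 151.0 of 207.4 CPM and 101.4 of 180.5 CPM on average. By group means Reln stood at 54.1 and 45.2% of whole liver and Rgs5 at 52.8 and 105.3%. The other stellate markers stood at up to 22.7 and 10.9%. The Spp1 share was below that of the lymphocyte list in 1 of 3 advanced mice of each diet. The part of these cells in the changes of Spp1 and Cd44 was not tested.

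Markers of bile duct epithelium, which makes osteopontin, behaved otherwise. All 10 tested rose in advanced FPC hepatocyte nuclei, and 10 of 11 under CDAHFD. They summed to 1307 to 1823 CPM in advanced and 328.8 to 444.2 CPM in control CDAHFD hepatocyte nuclei, and to 3254 to 5192 and 416.3 to 484.5 CPM under FPC. Relative to whole liver they stood at 106.3 to 112.8% and 137.7 to 156.1% in advanced mice. Epcam had 7.72 CPM in advanced and 0.165 CPM in control CDAHFD hepatocyte nuclei on average, and Krt19 2.51 and 0.0477 CPM. None of the 11 was at 0 in any group as a whole. Whether Spp1 came from the same nuclei as these markers was not tested. Hepatocyte markers stood at 148.9 to 161.0% of whole liver in advanced CDAHFD mice, against 78.4 to 116.6% in their controls, and at 128.0 to 133.9% in advanced FPC mice, against 98.7 to 108.0% in controls. The hepatocyte share of these markers was thus also higher in diseased mice, and its part in the shares of Spp1 and Cd44 was not tested.

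As a check on carried-over RNA, the endothelial share of each mouse's whole liver profile was subtracted from its hepatocyte counts. Spp1 kept 47.4 to 88.1% of its counts in every library, and all of its calls against controls remained. Cd44 kept 62.9 to 79.7% in advanced FPC mice and 17.3 to 21.0% in advanced CDAHFD mice, but no counts in 10 of the 16 control and mild libraries. Its changes in mild hepatocyte nuclei did not pass after subtraction (-3.96 ± 1.96, edgeR adjusted p = 0.126, under CDAHFD; 0.91 ± 1.43, 0.715, under FPC). With the median marker in place of the sum, chosen after the values were seen, mild CDAHFD mice kept 18.9 to 40.8% of Cd44 and the change passed (4.02 ± 0.74, 0.00103), while that of FPC mice did not (1.42 ± 0.86, 0.285). The changes of Cd44 in advanced over control mice passed in both versions. Subtracted counts were floored at 0. By the sum, Cd44 kept 0, 0, 0 and 8 counts in CDAHFD controls and 0, 37, 1 and 10 in FPC controls. With so few counts in controls, any counts left in advanced mice favour a call, and the size of the change is not informative.

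The pathway counts below stand beside 59.5% (CDAHFD) and 46.9% (FPC) of all genes called in advanced against control hepatocyte nuclei, and 55.7% and 59.3% in whole liver nuclei; shares called near these set no list apart. Of the integrin subunits that pair into osteopontin receptors, in hepatocyte nuclei 6 of 11 were higher and 1 lower under CDAHFD (median log2 change 0.98), and 6 higher under FPC (1.497), beside a median near 0 over all genes in each. Whole liver nuclei had 10 higher under CDAHFD (0.85), and 8 higher and 1 lower under FPC (1.19). Itgb6, an epithelial subunit that pairs with Itgav and activates latent TGF-beta, had 4.90 to 7.85 CPM in advanced and 0 to 0.451 CPM in control CDAHFD hepatocyte nuclei. Under FPC it had 18.3 to 34.6 CPM in advanced and 0.0964 to 0.172 CPM in control mice. Neither diet showed overlap, and the log2 changes were 4.34 ± 0.68 (edgeR adjusted p = 0.000195) and 7.03 ± 0.31 (5.44e-09).

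Itgb8, another partner of Itgav, rose by 2.76 ± 0.40 under CDAHFD and 5.02 ± 0.21 under FPC in hepatocyte nuclei. Itga9, whose product binds the site that thrombin exposes in osteopontin, rose by 1.58 ± 0.27 and 2.56 ± 0.23, and Itga4 by 1.89 ± 0.27 and 2.21 ± 0.43. Itgav, the shared alpha subunit of the RGD-binding receptors, passed in hepatocyte nuclei under FPC (0.87 ± 0.14, adjusted p = 0.000184) but stood at 0.06 ± 0.13 under CDAHFD (0.735), and it rose in whole liver nuclei of both (0.85 ± 0.10 and 1.19 ± 0.14). Itgb3, the classical partner in osteopontin binding, stood at 0.28 ± 0.38 under CDAHFD and -0.19 ± 0.47 under FPC in hepatocyte nuclei, and fell in whole liver nuclei under FPC (-0.59 ± 0.16, 0.00578). Itgb5 fell in hepatocyte nuclei under CDAHFD (-0.66 ± 0.13, 0.000742) and rose in whole liver nuclei (0.35 ± 0.13 and 0.71 ± 0.13). Itgb1 in hepatocyte nuclei stood at 0.05 ± 0.12 and 0.10 ± 0.13.

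Of the enzymes that cleave or modify osteopontin, 5 of 7 tested were higher and 1 lower in advanced CDAHFD hepatocyte nuclei (median 1.999), and 5 higher and 2 lower under FPC (2.45). Of 8 tested in whole liver nuclei, 6 were higher and 1 lower (2.13) and 5 higher and 2 lower (2.37). Mmp7, an epithelial matrix metalloproteinase that cuts osteopontin, had no counts in the 8 control hepatocyte libraries. It reached 3.89 to 14.1 CPM in advanced CDAHFD and 10.5 to 18.7 CPM in advanced FPC hepatocyte nuclei. The macrophage elastase Mmp12 had 8.08 to 12.9 CPM in advanced CDAHFD hepatocyte nuclei, with 2 counts over the 4 controls. In whole liver nuclei it had 165 to 243 CPM in advanced and 0.12 to 0.213 CPM in control CDAHFD mice. Plau, the urokinase that activates plasminogen, rose by 3.32 ± 0.54 and 3.73 ± 0.54 in hepatocyte nuclei, and Tgm2, which crosslinks osteopontin, by 1.44 ± 0.21 and 1.71 ± 0.17 (CDAHFD and FPC). F2, which encodes prothrombin, fell under FPC (-0.58 ± 0.13, adjusted p = 0.0028) and stood at -0.19 ± 0.17 under CDAHFD (0.348). The other 4 genes of the SIBLING family to which Spp1 belongs (Ibsp, Dmp1, Dspp and Mepe) had 0 to 2 counts in any group and were not tested.

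Among 9 genes for CD44 ligands and hyaluronan synthesis, Has1, Has2 and Has3 were too low to test. In advanced hepatocyte nuclei 2 of 6 were higher and 2 lower under CDAHFD (median 0.41), and 1 higher and 1 lower under FPC (0.19). The whole liver counts were 2 and 2 (-0.16) under CDAHFD and 3 and 1 (0.61) under FPC. Vcan, encoding the hyaluronan-binding proteoglycan versican, rose by 2.63 ± 0.31 and 2.09 ± 0.36 in hepatocyte nuclei and by 2.83 ± 0.25 and 2.66 ± 0.21 in whole liver nuclei (CDAHFD and FPC). Fn1, encoding the matrix protein fibronectin, fell in all 4 comparisons, with log2 changes of -0.78 to -1.48.

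Of 8 genes for hyaluronan uptake and breakdown, 2 were higher and 1 lower in advanced CDAHFD hepatocyte nuclei (median 0.25), and 4 higher and 1 lower under FPC (0.78). Whole liver nuclei had 4 higher and 2 lower (0.50), and 3 higher and 2 lower (0.48). Hmmr, a hyaluronan-binding protein of the mitotic spindle, had 5.02 to 8.71 CPM in advanced and 0.0354 to 0.12 CPM in control CDAHFD hepatocyte nuclei. The FPC ranges were 5.37 to 8.92 and 0.0788 to 0.276 CPM. The log2 changes of Hmmr were 6.14 ± 0.38 (edgeR adjusted p = 2.55e-07) and 4.76 ± 0.39 (6.44e-07). Hyal1, a lysosomal hyaluronidase, fell (-1.10 ± 0.16 and -1.27 ± 0.19).

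CD44 acts with co-receptors and is tied to actin by ERM proteins. Of these 10 genes, 6 were higher and 3 lower in advanced CDAHFD hepatocyte nuclei (median 1.51), and 6 higher and 2 lower under FPC (1.56). Whole livers had 5 higher and 3 lower in each diet (0.63 and 0.72). Iqgap1, a scaffold of the cortical cytoskeleton, rose by 3.90 ± 0.16 under CDAHFD and 3.79 ± 0.16 under FPC in hepatocyte nuclei, and by 2.996 ± 0.12 and 2.37 ± 0.13 in whole liver nuclei. Ezr (ezrin, a linker of membrane and actin) rose by 3.32 ± 0.24 and 3.46 ± 0.25 in hepatocyte nuclei, and the receptor tyrosine kinase gene Erbb2 by 3.71 ± 0.39 and 4.35 ± 0.41. Cd74, the receptor subunit for the cytokine MIF that signals through CD44, rose by 1.76 ± 0.32 and 2.97 ± 0.39; it is also abundant in antigen-presenting cells. Met, the receptor for hepatocyte growth factor that uses CD44 as a co-receptor, fell (-0.84 ± 0.21 and -0.75 ± 0.14).

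In the list for CD44 shedding and splicing, 3 of 10 were higher and 3 lower in advanced CDAHFD hepatocyte nuclei (median -0.13), and 3 higher under FPC (-0.11). Among whole liver changes 5 were higher and 1 lower (0.19), and 4 higher and 2 lower (0.11). Esrp1, the epithelial splicing regulator that favours variant exons of CD44, had 9.42 to 15.2 CPM in advanced and 0.113 to 0.343 CPM in control CDAHFD hepatocyte nuclei. Under FPC it had 18.1 to 29.9 CPM in advanced and 0.214 to 0.434 CPM in control mice, and the groups did not overlap in either diet. Its log2 changes were 5.18 ± 0.48 (edgeR adjusted p = 4.41e-06) and 5.86 ± 0.34 (3.57e-08). Mmp14, a membrane protease that sheds CD44, rose by 1.36 ± 0.16 and 1.499 ± 0.27. The sheddase Adam10 fell slightly under CDAHFD (-0.29 ± 0.10, 0.0225) and stood at 0.18 ± 0.12 under FPC (0.218), and Adam17 stood at -0.24 ± 0.14 (0.153) and 0.00 ± 0.11 (0.996). The table counts whole genes, so CD44 isoforms were not measured.

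**Figure D4:**
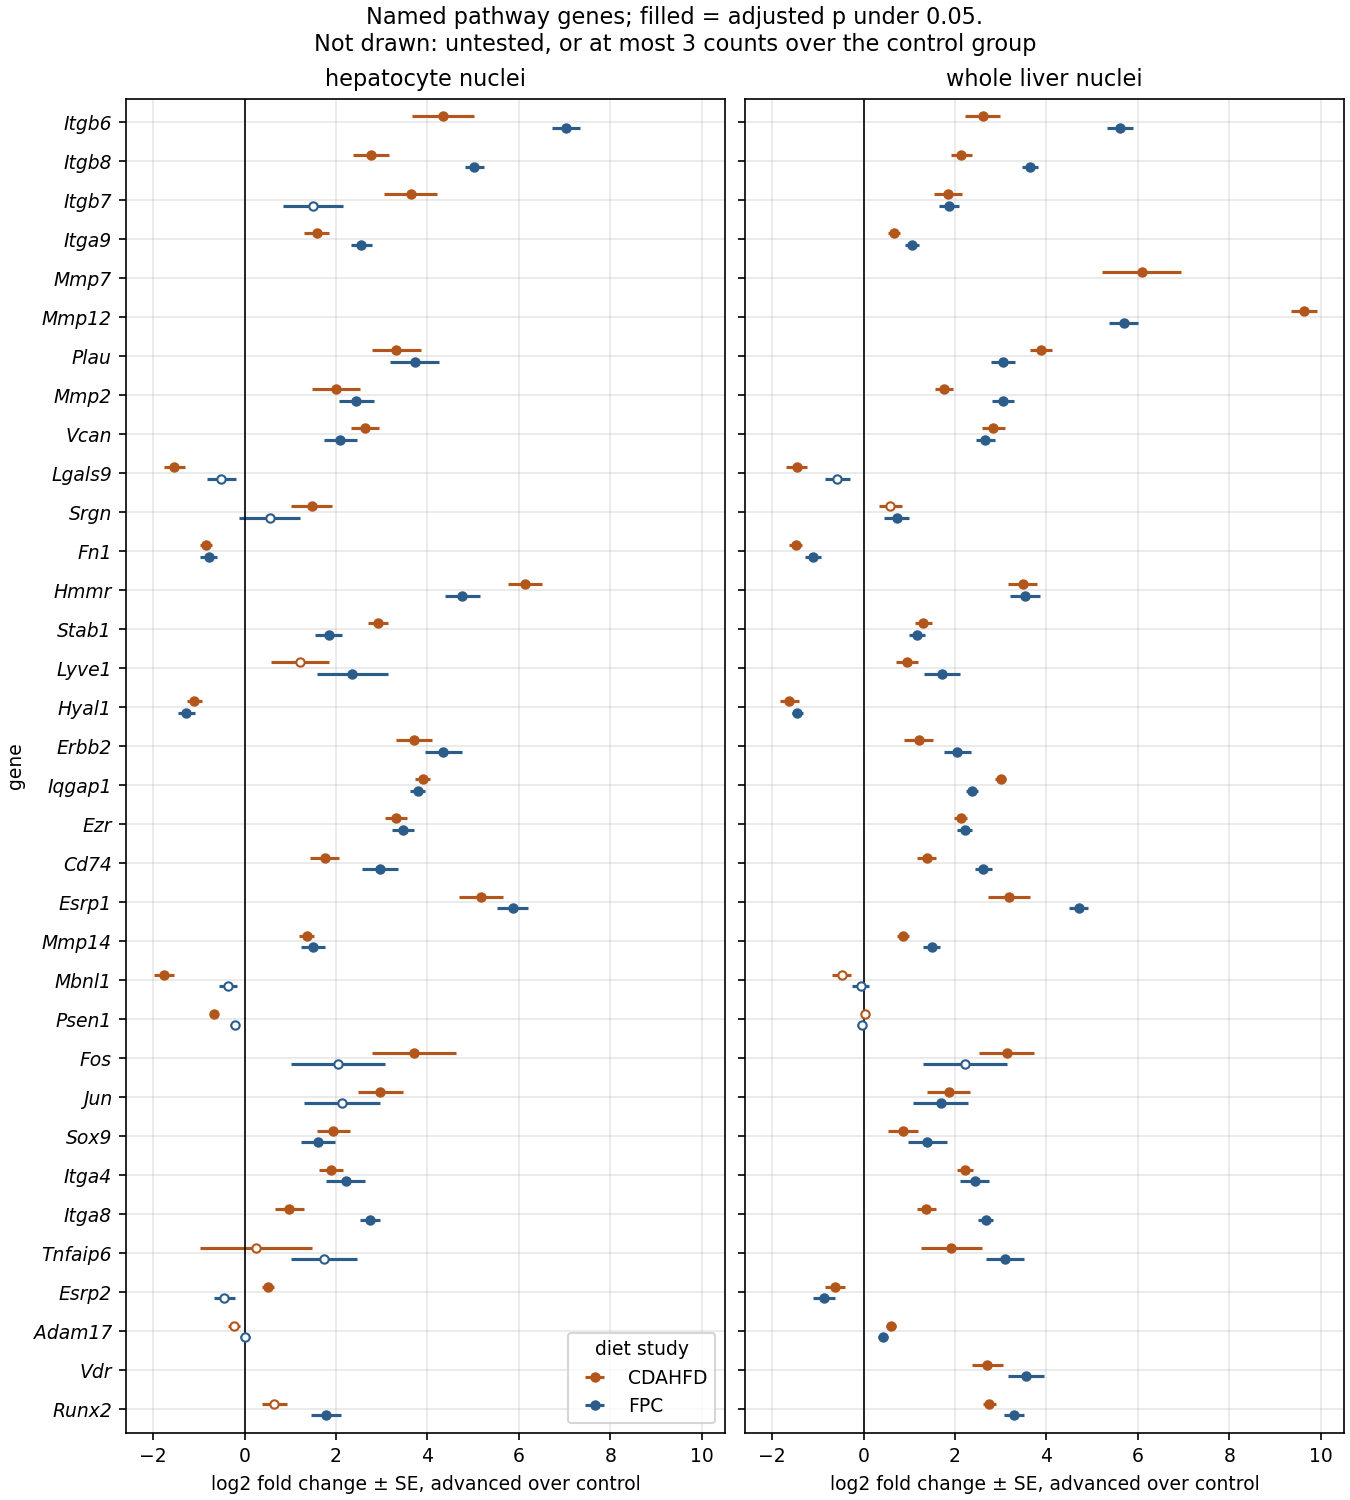
Log2 fold changes (edgeR, bars are SE) of advanced over control mice for genes named from the pathway lists, in hepatocyte nuclei (left) and whole liver nuclei (right); filled points passed the adjusted threshold. Itgb6, Itgb8, Hmmr, Erbb2, Iqgap1, Ezr and Esrp1 lie to the right of 0 in both panels, and Fn1 and Hyal1 to the left.

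Of 14 tested factors reported to act on Spp1, 6 were higher and 3 lower in advanced CDAHFD hepatocyte nuclei (median 0.62), and 8 higher and 1 lower under FPC (1.64). In whole liver nuclei 11 of 15 were higher and 2 lower (0.87), and 13 of 16 higher and 2 lower (1.64). Runx2, the factor of the RUNX motif, rose in hepatocyte nuclei under FPC (1.78 ± 0.33, edgeR adjusted p = 0.000603) and stood at 0.65 ± 0.28 under CDAHFD (0.0588). In whole liver nuclei Runx2 rose by 2.75 ± 0.14 and 3.30 ± 0.22. Sox9, a factor of biliary and injured hepatic epithelium, rose in hepatocyte nuclei by 1.94 ± 0.36 and 1.61 ± 0.37. The AP-1 gene Jun rose under CDAHFD (2.97 ± 0.49, 0.000357) and stood at 2.13 ± 0.83 under FPC (0.0568). Fosl1, another AP-1 gene, had 0.579 to 0.684 CPM in advanced FPC hepatocyte nuclei and no counts in their controls.

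The genes whose pattern over the 12 group means was most like each member were found by the root mean square difference of centred log2 CPM, among 12759 genes with a mean of at least 1 CPM. For Spp1 they were Adamts15 (0.25), Sobp (0.27), Arhgef28, Casp12, Ptpn13 and Bicc1 (0.28 each), Enah (0.29) and Sema5a (0.30), beside a median gene at 1.71. Bicc1, an RNA-binding protein, is also in the cholangiocyte list, and Adamts15 is a matrix protease. For Cd44 they were Niban1 and Neurl3 (0.23 each), the efflux transporter Abcc1 (0.24), Emb and Fgd3 (0.26 each), Sh3bp1 (0.27), the ETS factor Elf4 (0.28) and Akr1b10 (0.29), beside a median of 1.89. The lists share no gene. Cd44 itself ranked 1071 for likeness to Spp1, and Spp1 ranked 1343 for likeness to Cd44, with a difference of 1.08. The 12 points share libraries and depth between genes, so these values are a description.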

How the data were processed

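The authors deposited raw counts for 44 libraries, whole numbers for 20105 RefSeq transcript identifiers, per the file headers. For 13147 genes the authors deposited their own log2 changes and adjusted p-values for hepatocyte groups; the counted length there equals the gene length, introns included, in 94.7%. STAR 2.4.2a, DESeq2 1.24.0 and the build mm10 are named in the submitters' processing notes; the counting tool and its strand setting are not given in the sources used here. The kit marked strand and poly-adenylated RNA was not selected, per the labels' protocols. Symbols came from the authors' table (13147), and from RefSeq (6879), which also gave the span of Cd44 and of Spp1.

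CPM values were computed here from the library totals. Differences were tested with edgeR 4.0.16 in R 4.3.3 (TMM scaling, filterByExpr, robust quasi-likelihood F-test, Benjamini-Hochberg adjustment over all genes, threshold 0.05). Each SE follows from the log2 change and its F value. Stages were fitted on the 11 libraries that share fraction and diet, fractions and their interaction on the 22 of a diet, and diet differences on the 22 of a fraction. The pipeline was tested on simulated counts. Replicate counts varied beyond sampling noise (chi-square over its degrees of freedom, 20.0 to 271.7), and the labels give each mouse its own number. Each mouse gave a single library per fraction, so spread between mice and spread from preparing the libraries cannot be told apart. Shares of whole liver CPM were compared on the log2 scale with a pseudocount of 0.1 CPM. Alternatives were RLE scaling, library totals, other filters, DESeq2 1.42.0, 2 groups alone, leaving out each mouse, carry-over subtraction and the mouse as a block; leaving out the 2 crosswise control mice, with and without the block, and the median-marker subtraction were chosen after seeing the data.

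The members, 8 pathway lists and 9 marker lists were chosen with earlier results of these data known, and list counts are descriptions. From each pathway list, up to 4 genes per fraction could be named, those called in advanced against control mice in either diet with the largest change averaged over the diets; Itgav, Itgb1, Itgb3, Itgb5, Adam10, Adam17 and Mmp14 could always be named. F2, Tgm2 and Met fall outside this rule and were chosen after their values were seen. For likeness, the 8 nearest genes per member were named. All 168 list genes were measured.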

Additional observations from a re-analysis of the deposited data

Results flagged for a closer look

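Among 24 sets of 4 mice tested for a single mouse far from the rest (Dixon's test), 2 had one; chance gives about 1 in 20 groups. Mouse CDAHFD_Control_10110 had 2.82 CPM of Spp1 in hepatocyte nuclei, and the next highest control had 1.35 CPM. Mouse FPC_Mild_6886 had a hepatocyte share of Spp1 of 75.7%, and the next had 53.1%.

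A pair of disease changes differed between groups in a test of the difference itself. The advanced change of Cd44 under CDAHFD was larger in hepatocyte than in whole liver nuclei by 1.27 ± 0.22 (edgeR adjusted p = 0.000973). The advanced change of Spp1 in whole liver nuclei was smaller under CDAHFD than under FPC, by -1.38 ± 0.37 (adjusted p = 0.0346).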

How the results depend on the processing

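For the 64 results on Spp1 and Cd44, 1004 of 1124 alternative values kept the direction and the side of the threshold, and 39 results did so under every alternative run. All 16 comparisons of disease with control were called, and the only alternative that ended any of these calls was carry-over subtraction, for Cd44 in mild hepatocyte nuclei (-3.96 under CDAHFD; 0.91 under FPC, and 1.42 by the median marker). By the median marker Cd44 in advanced minus mild CDAHFD hepatocyte nuclei was 1.94 and not called. DESeq2 called Spp1 in advanced minus mild CDAHFD mice (1.23 in hepatocyte and 0.80 in whole liver nuclei) and put the mild diet difference of Spp1 in hepatocyte nuclei at -0.0071. With no filter, Cd44 in hepatocyte minus whole liver nuclei of advanced FPC mice was -0.99 and not called. The FPC advanced interaction of Cd44 was called with library totals (1.74), DESeq2 (1.72) and the replicate block (1.62). The replicate block also called the CDAHFD interaction of Spp1 in advanced mice (1.30) and of Cd44 in mild mice (0.46), and changed no other call. Without mice CDAHFD_Control_9862 and CDAHFD_Control_9867 the blocked value of Spp1 was 1.10, just past the threshold, and that of Cd44 in mild mice was 0.37 and not called. Without mice CDAHFD_Control_9862 and CDAHFD_Control_9867, Spp1 in hepatocyte minus whole liver nuclei of CDAHFD controls was -1.03 and not called. With the block as well it was -1.08 and called. The cause of these changes was not tested.

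The share tests lost their calls with a pseudocount of 0.5 CPM. Spp1 in FPC mild minus control mice then had an exact permutation p of 0.114. The other contrasts called before kept an exact p of 0.0286, and only their adjusted p moved, to 0.0571. Spp1 stood at 0.42 (FPC mild minus control) and 1.17 (CDAHFD advanced minus control). Cd44 stood at 1.54 and 1.249 (FPC advanced minus control and minus mild) and at 1.23, 0.40 and 0.83 (CDAHFD advanced minus control, mild minus control, advanced minus mild). Without mice CDAHFD_Control_9862 and CDAHFD_Control_9867 the CDAHFD shares gave 1.21 for Spp1 in advanced minus control mice, and 1.244 and 0.40 for Cd44 in advanced and mild minus control mice, none called. With so few controls no exact p under 0.0667 can occur, so none of these could pass.

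Leaving out 1 mouse at a time ended every call of the share tests after adjustment. In contrasts with advanced mice the smallest exact p that can occur was then 0.1 or 0.0667, so no such call could be kept. In mild minus control contrasts the exact permutation p was 0.0286 or 0.0571, with adjusted p of 0.0571 or more. Spp1 then ranged from 0.42 to 0.73 (FPC mild minus control) and 1.23 to 1.56 (CDAHFD advanced minus control). Cd44 ranged from 1.54 to 1.84 and 1.11 to 1.44 (FPC advanced minus control and minus mild), and from 1.28 to 1.44, 0.43 to 0.59 and 0.78 to 0.91 (CDAHFD advanced minus control, mild minus control, advanced minus mild). In the fits, advanced minus mild Cd44 ranged from 1.12 to 1.77 (FPC) and 0.84 to 1.05 (CDAHFD) in hepatocyte nuclei and from -0.040 to 0.45 in FPC whole liver nuclei, and Spp1 from 0.67 to 1.02 in CDAHFD whole liver nuclei, called without mouse CDAHFD_Mild_9894. Hepatocyte minus whole liver Spp1 ranged from -0.81 to -0.65 (FPC mild, lost without FPC_Mild_6825, FPC_Mild_6887 or FPC_Mild_6888), from -1.42 to -1.02 (CDAHFD control, lost without CDAHFD_Control_9862, CDAHFD_Control_9867 or CDAHFD_Control_10113) and from -0.024 to 0.24 (CDAHFD advanced), and Cd44 from -1.14 to -0.84 (FPC advanced, lost without any 1 of 6 mice). The FPC advanced interaction of Cd44 ranged from 1.47 to 1.79. The diet difference of Spp1 ranged from -0.25 to 0.34 (hepatocyte, mild) and -1.52 to -1.14 (whole liver, advanced), and that of Cd44 from -0.28 to 0.37 and -0.41 to 0.14 (mild, hepatocyte and whole liver). Control hepatocyte libraries held 20 to 50 counts of Spp1, which limits the precision of every fold change against them.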
